A study of Mus musculus with 43 samples.

Results

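Isolated sites of intermediate methylation are positions of the sequence CCCGGG that have no other listed CCCGGG within 1000 bp and at which some copies of the DNA carried a methyl group and others did not. Of the 173449 sites listed for the mouse genome (build mm9), 164896 lie on chromosomes 1 to 19, and 105429 of these had no listed neighbor within 1000 bp. The epithelium of mice on 2 mg folic acid (FA) chose the members: 790 isolated sites had at least 20 reads in at least 4 of its 7 libraries, and 227 of those had a mean methylation of 20 to 80% there. Another 219 of the 790 lay below this window and 344 above it. Since the 2 mg libraries chose the members, their levels are given as a description only.

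In mammals DNA methylation sits mostly on cytosines that precede a guanine, and a single copy of such a cytosine is either methylated or not. A level between the extremes therefore describes a mixture of copies, which can differ between cells or between the maternal and paternal chromosome. Folate carries the methyl groups from which S-adenosylmethionine, the donor used by DNA methyltransferases, is made. Tumors of the colon are known for methylation losses across the genome beside gains at some CpG islands.

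All animals were female Swiss Webster mice that received the carcinogen azoxymethane (AOM) at 7 weeks of age and, from 9 weeks, 4 cycles of dextran sulfate sodium (DSS), which damages the colonic epithelium. The diets with 0, 2 or 8 mg FA per kg began at 11 weeks and lasted 16 weeks, and tissue was taken at 27 weeks. Cells were laser-microdissected from fixed, paraffin-embedded colon. The labels call all non-neoplastic libraries epithelium, while the published account also describes samples that held lamina propria, and the labels do not say which libraries these are. "Epithelium" is used here as the labels use it, and a different mix of cell types cannot be told apart from a different level in 1 cell type. The first cohort held non-dysplastic (ND) epithelium of 5 mice on 0 mg (0ND), 7 on 2 mg (2ND) and 6 on 8 mg (8ND). The second held epithelium and polypoid dysplasia (P) of the same mice, with 6 libraries of 0ND, 6 of 0P, 6 of 8ND and 7 of 8P, where mouse 1856 gave 2 lesions. The cohorts share 8 mice and are not independent. All 43 libraries come from treated mice, so no group without AOM and DSS is compared.

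In the assay, Digital Restriction Enzyme Analysis of Methylation (DREAM), the enzyme SmaI cuts unmethylated CCCGGG and XmaI then cuts what is left, so that the ends of a read show whether its copy was methylated. The authors adjusted each percentage with spiked standards, and these adjusted percentages are used unless raw ones are named. Libraries had 1488920 to 16923453 reads on sites. With 20 reads, a raw share of 50% has a 95% Wilson interval of 29.9 to 70.1%, and with 50 reads one of 36.6 to 63.4%. Such intervals cover counting error only, since copies made by PCR are not independent molecules.

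Reads on isolated sites were rare. In 2ND, 0.749% of the isolated autosomal sites had the required reads, against 36.5% of the 59467 sites with a listed neighbor within 1000 bp, here called clustered. The share covered was 62.9% with the nearest site 300 to 500 bp away, 1.58% at 500 to 1000 bp and 0.868% at 1000 to 2000 bp. The library protocol cut 2 gel slices, of 250 to 350 bp and 350 to 500 bp. A site in the window was common among the few isolated sites that were covered: 227 of 790 (28.7%) were intermediate, compared with 3581 of 21715 covered clustered sites (16.5%). By distance, the intermediate share was 6.98% under 100 bp, 17.8% at 100 to 300 bp, 25.2% at 300 to 500 bp, 23.5% at 500 to 1000 bp, 27.9% at 1000 to 2000 bp, 28.2% at 2000 to 5000 bp, 25.8% at 5000 to 10000 bp and 32.8% beyond 10000 bp, so that it did not rise at every step. Sites under 20% made up 89.1% of covered sites under 100 bp and 18.2% beyond 10000 bp. Sites above 80% made up 3.93 to 17.3% in the distance steps up to 1000 bp and 31.6 to 49.0% in those beyond. The intermediate share is taken over all covered sites, and isolated sites had fewer under 20% and more above 80%. It is therefore not a share among methylated sites. Clustered intermediate sites, with 20 to 80% in 2ND by the same reads, are the set beside which the members are read below.

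The 36 libraries outside the 2ND group, which the rule did not use, showed the same order. Among sites with at least 50 reads in a library, the share at 20 to 80% was higher for isolated than for clustered sites in 36 of 36 libraries. Isolated sites had a median share of 33.6% (range 12.4 to 43.6%) and clustered sites one of 13.0% (range 5.56 to 18.6%). The isolated sites behind these shares numbered 39 to 4712 per library, and many mice gave more than 1 of these libraries.

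**Figure D1:**
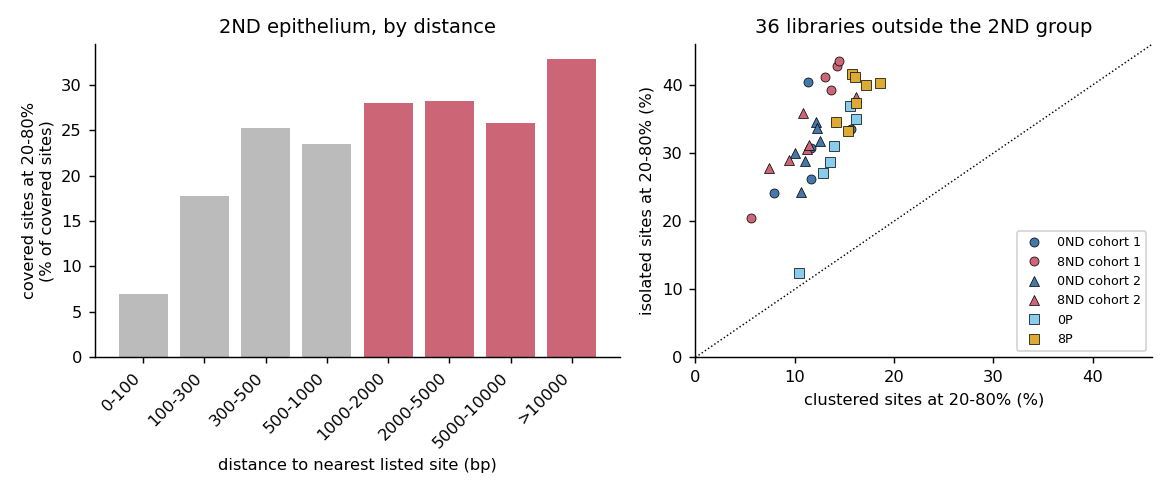
Left, the percentage of covered sites with a mean adjusted methylation of 20 to 80% in the 2ND epithelium (vertical axis) by distance to the nearest listed site in bp (horizontal axis), with isolated distances in red. Right, for each of the 36 other libraries, the percentage of isolated sites (vertical axis) against that of clustered sites (horizontal axis) at 20 to 80%, among sites with at least 50 reads. Every point lies above the dotted line of equal shares, and the lowest is a 0P library at 12.4%.

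Members were found across the whole window and on every autosome. Going up by 10 percentage points from 20%, they numbered 38, 35, 33, 38, 36 and 47, with a median of 51.7%. In raw percentages the median was 37.3%, and 186 of the 227 also lay at 20 to 80%, while 41 lay under 20% and 0 above 80%. Chromosome 1 held 25 members of 61 isolated sites with the required reads (7405 isolated sites in all). Chromosome 4 held 11 of 44 (7370 in all) and chromosome 14, with the fewest members, 6 of 26 (4649 in all). The nearest listed site was a median of 5182 bp away (range 1054 to 72697), compared with 5989 bp for all isolated sites. No genome of build mm9 was used here, so the members are given by position, without genes or sequence.

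At the edges of the rule, members on chromosomes 3 and 12 had 20.8 and 21.4%, while sites on chromosomes 2 and 6 just missed it with 19.6% each. Near the upper limit, members on chromosomes 5 and 9 had 79.7 and 79.4%, and sites on chromosomes 10 and 19 just missed it with 80.1% each. By distance, the nearest members had a neighbor at 1054 and 1096 bp, and the nearest sites left out had one at 897 and 880 bp.

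Few members could be followed in every library. In 2ND, 47 of the 227 had at least 20 reads in all 7 libraries and the others in 4 to 6. Of all 227, 24 had 20 reads in each of the 18 libraries of the first cohort, 15 in each of the 25 of the second, and 12 in all 43. The median member reached 20 reads in 20 libraries and the median clustered intermediate site in 39. Polyp libraries covered 118 to 191 members in 0P and 172 to 210 in 8P. Second-cohort epithelium covered 49 to 95 in 0ND and 47 to 185 in 8ND, where the 8ND library of mouse 1856 was the one with 185. Each comparison below therefore rests on the members with 20 reads in every library compared, and the remaining members are described where at least 3 libraries of each group covered them.

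The members remained intermediate in most other groups. Among members covered in at least 3 libraries of a group, the group mean lay between 20 and 80% for 67 of 82 in the 0ND of the first cohort, 70 of 83 in its 8ND, 53 of 68 in the 0ND of the second cohort, 62 of 76 in its 8ND, 133 of 184 in 0P and 175 of 213 in 8P. Their mean levels were 60.05, 50.9, 53.8, 48.0, 44.98 and 43.2% in that order, over different members in each group. Most members outside the window in polyps were below it, 37 in 0P and 34 in 8P, with 14 and 4 above it.

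Several libraries stood apart. Standards took 32.6 to 77.4% of the reads in 0P libraries and 8.80 to 40.3% in 8P. In second-cohort epithelium they took 6.98 to 52.7% in 0ND and 8.85 to 47.2% in 8ND. The highest share, 77.4%, was in the 0P library of mouse 1805, where 80 members had 0 reads. Among its 67 members with at least 50 reads, 38 (56.7%, 95% Wilson interval 44.8 to 67.9%) lay under 10% or above 90%. The other 0P libraries had 10.8 to 31.3% of such values, and 8P had 1.92 to 18.6%. Pooled over libraries, values between 10 and 90% made up 94.4% in the 0ND and 97.1% in the 8ND of the first cohort, 90.5 and 85.8% in the second, 75.3% in 0P and 89.7% in 8P. Clustered intermediate sites had 84.1% in 0P and 95.8% in 8P. Coverage set the 8ND library of mouse 1856 in the second cohort apart, with 48630 sites at 20 reads compared with 15893 to 21585 in the other 5. The 8P libraries had 47798 to 54855. The title code of that 8ND library is 1856N, while the codes of the other second-cohort epithelium libraries begin with N. The first-cohort 8ND library of mouse LC1844 (named with the prefix its label has) was the shallowest, with a median of 2 reads per member. The 100 most-read sites took more than 8% of the reads in the second-cohort 0ND of mice 1805, 1808 and 1820 and 8ND of mice 1830, 1848 and 1858.

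Depth itself varied between libraries at these sites. Scaled to the depth of each library, a member had under 10% of its expected reads in 4.11% of 4593 site-library pairs where at least 20 were expected, compared with 2.05% for clustered sites. Where one library of a mouse showed such a loss at a member, another library of the same mouse showed it at the same member in 94 of 198 cases (47.5%), while libraries of other mice did in 14.9%. For clustered sites these values were 13.1 and 5.93%. Each pair of libraries was taken in both directions, and sites and mice recur, so these cases are not independent. Pairs of different mice also crossed diets, and pairs of both kinds crossed cohorts. Differences between mice therefore cannot be told apart from those between sets of libraries. An example of shared loss was chr8:96486100. There the 0P and second-cohort 0ND libraries of mice 1808 and 1820 each had 0 reads, while those of mouse 1809 had 54 and 66. This site was chosen after its values were seen, as was chr16:57391706, the member with the most reads. The latter had 192 to 2932 reads in the first cohort and 9050 to 132382 in the second, and its level ranged from 19.5 to 43.9% in the first cohort and from 6.49 to 50.5% in the second.

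The effect of the FA dose on epithelium was first compared within the first cohort, 8ND against 0ND, over the 24 members with 20 reads in all 11 libraries. Methylation was lower on 8 mg FA. The 0ND libraries averaged 56.3, 58.6, 59.1, 58.3 and 52.4%, with a mean of 57.0% ± 2.74 (SD, n = 5). The 8ND libraries averaged 50.9% ± 2.72 (n = 6), from 47.4% in mouse 1841 to 55.6% in mouse 1848. Only the 8ND library of mouse 1848 and the 0ND library of mouse 1820 made the ranges overlap. The difference of -6.02 percentage points had a two-sided exact permutation p of 0.00866, and of 0.0303 when all 7 comparisons of member means were adjusted together (Benjamini-Hochberg). The smallest p this design allows is 0.00433.

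In raw percentages the difference was -6.74 points with larger spread between mice, 34.1% ± 4.36 in 8ND and 40.8% ± 9.08 in 0ND, and the exact permutation p was 0.152. Over the 1578 clustered intermediate sites the adjusted difference was -5.31 points. The 7 libraries of 2ND averaged 51.1% ± 3.604 at the same 24 members, from 44.0 to 55.0%, a value that the choice of members touches and that is not tested.

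**Figure D2:**
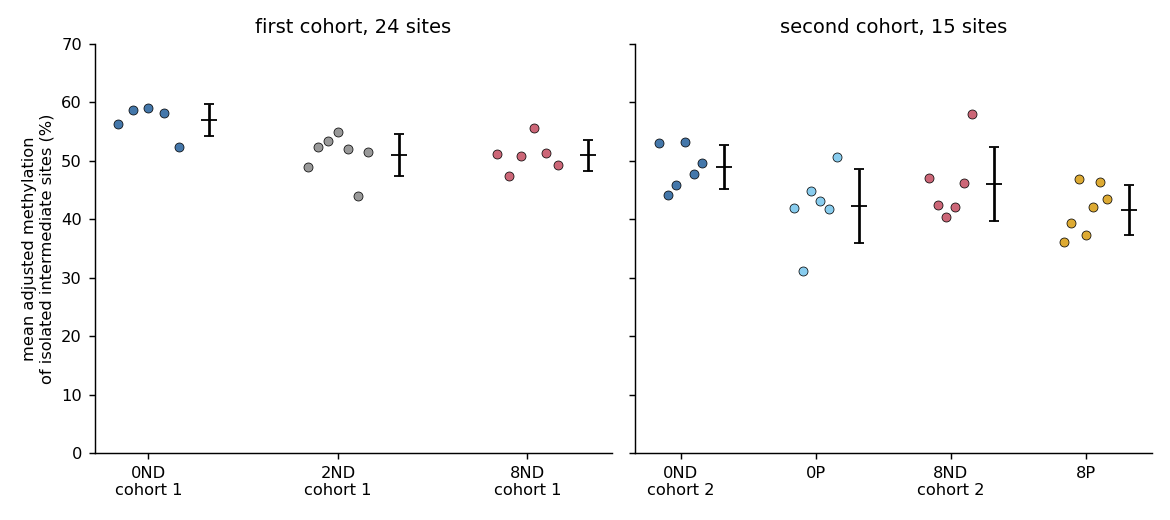
Mean adjusted methylation (vertical axis, %) over the isolated intermediate sites with 20 reads in every library of a cohort, by group (horizontal axis). Each point is 1 library, and the bar beside each group is its mean and SD. In the first cohort (24 sites) the 5 0ND libraries lie at 52.4 to 59.1% and the 6 8ND libraries at 47.4 to 55.6%. In the second (15 sites) 1 8ND library stands at 58.1%, above the other 5.

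Site by site, 12 of the 24 members were called by the study's criteria, a difference of more than 5 percentage points with an unadjusted p under 0.05, here from a comparison of group means that assumes equal variances. Of these, 10 were lower and 2 higher in 8ND. The same criteria called 4.42% of all 13475 sites tested (3.82% as lower) and 380 of the 1578 clustered intermediate sites (24.1%). The groups overlapped at all 24 members, while 0.965% of all sites tested had groups that did not overlap. No member passed limma with Benjamini-Hochberg adjustment over all sites, nor did any other site, whereas limma gave 12 members at an unadjusted p under 0.05. Counting members with 20 reads in at least 3 libraries of each group, 20 of 66 were called, 18 of them lower, against 4.75% of all sites so tested. Here 45 of the 66 were lower by any amount, with a median of -7.27 points, compared with 74.4% of clustered intermediate sites and a median of -5.33.

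By their level in 2ND, members of the first cohort differed in how many were lower in 8ND. Among members with a 2ND level of 20 to 40%, 6 of 14 were lower in 8ND (median 0.52 points), compared with 15 of 21 at 40 to 60% (median -11.7) and 24 of 31 at 60 to 80% (median -7.49). In the second cohort the order was another: 10 of 15 were lower at 20 to 40% (median -4.09 points), 16 of 22 at 40 to 60% (median -10.1) and 15 of 25 at 60 to 80% (median -2.41). These counts were not tested.

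The largest loss was at chr3:122043172, which lies 16491 bp from the nearest listed site. The 0ND mice had 57.1, 47.8, 38.5, 27.8 and 22.5% there, and the 8ND mice had a lowest value of 2.90%, a median of 13.8% and a highest of 25.6%. The highest 8ND value exceeded only the lowest 0ND value. The means of 38.7% ± 14.2 and 13.8% ± 7.66 differed by -24.96 points (exact permutation p = 0.00866, limma adjusted p = 0.388), with 71 to 755 reads per library.

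Second in size was chr14:79642080, at 42.8, 51.9, 58.1, 48.8 and 35.6% in 0ND. In 8ND it had a lowest value of 10.3%, a median of 26.5% and a highest of 40.3%, so that mice of the 2 diets overlapped between 35.6 and 40.3%. The difference was -21.4 points (exact permutation p = 0.0130, limma adjusted p = 0.467). In the second cohort chr14:79642080 had 33.7% ± 16.8 in 8ND and 34.4% ± 17.4 in 0ND, a difference of -0.71 points (exact permutation p = 0.950).

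Both members that were higher in 8ND moved by less. At chr9:67646701 the 0ND mice had 39.4, 34.4, 15.7, 35.7 and 27.2%, and the 8ND mice ranged from 36.8 to 56.6%, a difference of 13.8 points (exact permutation p = 0.0216). The lowest library here had 21 reads. At chr1:136602024 the 0ND mice had 68.8, 74.2, 74.8, 72.4 and 66.7% and the 8ND mice ranged from 72.0 to 89.4%, a difference of 9.76 points (exact permutation p = 0.0390). Their limma adjusted p-values were 0.736 and 0.674. In the second cohort chr1:136602024 lay the other way, with a mean of 53.3% ± 32.3 in the 5 8ND libraries with 20 reads (lowest 0%) and 76.0% ± 11.5 in the 6 of 0ND, and it was not tested there. At chr9:67646701 only 2 libraries of each group had 20 reads in that cohort.

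**Figure D3:**
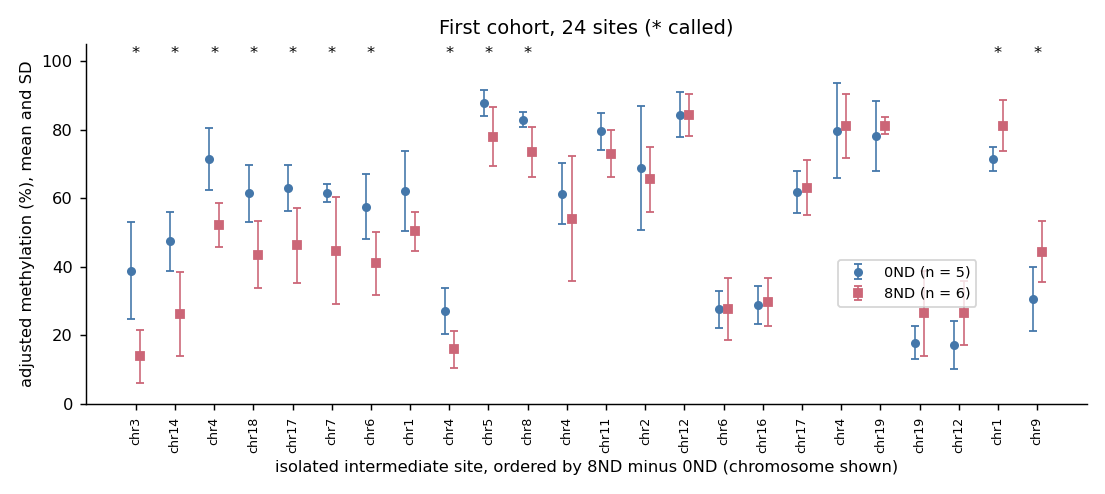
Adjusted methylation (vertical axis, %) as mean and SD in 0ND (circles, 5 libraries) and 8ND (squares, 6 libraries) of the first cohort at the 24 isolated intermediate sites, ordered by 8ND minus 0ND (horizontal axis, chromosome shown). Asterisks mark the 12 called sites, 10 of them lower and 2 higher in 8ND.

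The epithelium of the second cohort gave a smaller difference. Over 19 members, the 0ND libraries averaged 52.2% ± 3.31 (n = 6, lowest 48.4%, highest 57.1%) and the 8ND libraries 48.8% ± 6.18 (n = 6, lowest 43.3%, highest 60.9%). The difference of -3.40 points did not pass the exact permutation test (p = 0.264, adjusted p = 0.407). The 8ND library of mouse 1858 was the one at 60.9%, and the other 5 lay between 43.3 and 48.7%. Without it 8ND lay 5.82 points lower, a difference of -5.82 (exact permutation p = 0.00866). When libraries whose 100 most-read sites took more than 8% of the reads were left out, 3 remained in each group and differed by -7.70 points (exact permutation p = 0.1, as small as 3 against 3 allows). The cohorts share mice, so these values are no independent repeat. Of the 13 members tested in both cohorts, 6 were lower in 8ND in both, 2 were higher in both and 5 differed in direction.

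In the second cohort, 2 of the 19 members were called, both lower in 8ND, against 1.46% of the 9666 sites tested (1.31% as lower) and 7.56% of clustered intermediate sites, and none had groups that did not overlap (0.124% of all sites tested). Limma with adjustment over all sites called 0 members and 0 of all sites, with 2 members at an unadjusted p under 0.05. With 20 reads in at least 3 libraries of each group, 3 of 62 members were called, against 1.77% of all sites. One of the called members was chr3:122043172 again, with a lowest value of 14.2%, a median of 29.2% and a highest of 58.2% in 0ND and 3.27, 12.9 and 22.1% in 8ND (exact permutation p = 0.0281). The other was chr5:98089475, a member outside the rule for named sites that was picked after its values were seen. It had a mean of 85.4% ± 6.03 in 0ND and 64.8% ± 18.9 in 8ND, a difference of -20.7 points (exact permutation p = 0.0216).

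Polyps without FA were compared with the epithelium of the same mice over 21 members. Polyps had the lower level, 44.5% ± 8.44 (n = 6) compared with 54.2% ± 4.36 (n = 6). The polyp minus epithelium difference was -20.4 points in mouse 1805, -19.2 in 1807, -2.18 in 1808, -10.7 in 1809, -5.59 in 1820 and 0.12 in 1839. In 5 mice the polyp thus had the lower level, and mouse 1839 had nearly the same level in both, with the largest differences in mice 1805 and 1807. The mean difference of -9.66 points had an exact permutation p of 0.0216 between libraries. Adjusted over the 7 comparisons it was 0.0505, and with the libraries paired by mouse the exact sign-flip p was 0.0625, so neither passed 0.05. Without the 0P library of mouse 1805 the difference was -8.94 points over 29 members (exact permutation p = 0.0173). In raw percentages it was -8.37 points (p = 0.0584, exact permutation). With the 3 0ND libraries under 8% on the most-read sites it was -8.39 points (exact permutation p = 0.0714). Over members with 20 reads in at least 3 libraries of each group it was -5.09 points (58 members, exact permutation p = 0.0823). The clustered intermediate sites differed by -9.53 points.

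Of the 21 members, 4 were called, all lower in 0P, against 5.37% of the 11109 sites tested (4.79% as lower) and 26.9% of clustered intermediate sites. With 20 reads in at least 3 libraries of each group, 9 of 58 members were called, 7 lower and 2 higher, against 5.25% of all sites so tested. Limma with adjustment over all sites called 0 members and 24 of all 11109 sites, with 4 members at an unadjusted p under 0.05.

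Groups did not overlap at 1 member, chr4:149071875, compared with 1.17% of all sites tested. Its 0ND libraries ran from 16.8 to 24.4% with a median of 17.9%, and its 0P libraries from 0 to 13.9% with a median of 10.3%. Polyps differed by -10.6 points (exact permutation p = 0.00216, the smallest this design allows; limma adjusted p = 0.183). The library at 0 was that of mouse 1805, with 174 reads, which allow a raw share of up to 1.72%. The same site had 19.2 to 35.8% in the 0ND of the first cohort and 9.23 to 21.7% in its 8ND.

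The largest change was at chr2:158629726, with a lowest value of 49.0%, a median of 79.1% and a highest of 92.3% in 0ND and 13.2, 46.7 and 55.9% in 0P. Of the 0P values, those of mice 1805, 1807 and 1820 lay below every 0ND value, and those of mice 1808, 1809 and 1839 lay above the lowest 0ND value alone. The difference was -33.0 points (exact permutation p = 0.00866, limma adjusted p = 0.258). The third called member was chr3:122043172, which had 0 to 20.3% in 0P, a difference of -20.3 points from 0ND (exact permutation p = 0.0130). At the fourth, chr12:109624816, the means were 11.4% ± 9.86 in 0P and 28.2% ± 14.3 in 0ND (exact permutation p = 0.0281).

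**Figure D4:**
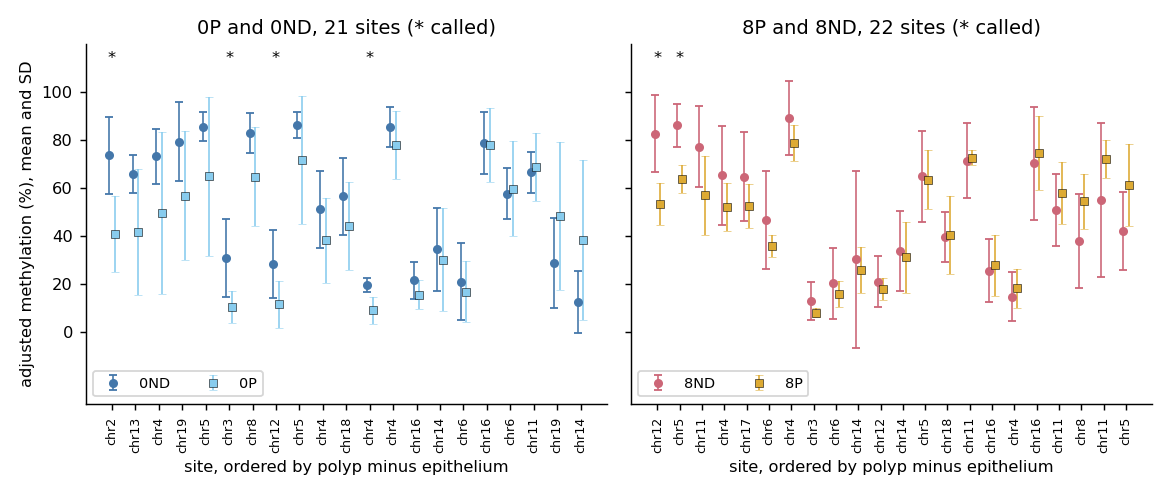
Adjusted methylation (vertical axis, %) as mean and SD in epithelium (circles) and polyps (squares) of the second cohort, without FA (left, 21 sites, 6 and 6 libraries) and on 8 mg FA (right, 22 sites, 6 and 7 libraries), ordered by polyp minus epithelium (horizontal axis, chromosome shown). Asterisks mark called sites, 4 on the left and 2 on the right, all lower in polyps.

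On 8 mg FA, polyps and epithelium were closer at the 22 members compared. The 8P libraries averaged 46.9% ± 3.77 (n = 7, lowest 41.4%, highest 52.5%) and the 8ND libraries 50.0% ± 6.24 (n = 6, lowest 44.6%, highest 62.0%). The difference of -3.10 points did not pass the exact permutation test (p = 0.331, adjusted p = 0.407), nor did it when paired by mouse with both lesions of mouse 1856 averaged (-3.46 points, exact sign-flip p = 0.312). By mouse it was -6.44 points in 1800, 0.63 in 1830, 5.87 in 1841, -4.30 in 1848, -1.96 in 1856 and -14.6 in 1858. Clustered intermediate sites differed by -3.13 points. Members covered in at least 3 libraries of each group were lower in 8P at 40 of 74, with a median of -0.28 points. Leaving out the 8ND library of mouse 1856 gave -2.30 points over 23 members.

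Of the 22 members, 2 were called, both lower in 8P, against 5.13% of the 9969 sites tested (3.5% as lower) and 19.5% of clustered intermediate sites. None had groups that did not overlap, compared with 0.672% of all sites. With 20 reads in at least 3 libraries of each group, 11 of 74 members were called, 8 lower and 3 higher, against 5.53% of all sites. Limma with adjustment over all sites called 0 members and 5 of all 9969 sites, with 3 members at an unadjusted p under 0.05. At chr12:103432426 the 8P lesions had a lowest value of 40.9%, a median of 54.1% and a highest of 69.9%, and the 8ND libraries had 52.6, 83.9 and 98.6%. The library at 52.6% was that of mouse 1856, whose coverage lay within the range of the 8P libraries. The other 5 lay at 82.8% or above, over every 8P value. Polyp and epithelium cannot be told apart here from these sets of libraries. The difference was -29.5 points (exact permutation p = 0.00583, limma adjusted p = 0.163). The 0ND libraries of the second cohort had 77.0 to 83.7% at this site.

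At chr5:117102587 the 8P lesions had a lowest value of 59.1%, a median of 60.4% and a highest of 75.5%, compared with 68.8, 88.1 and 93.2% in 8ND. Here too the 8ND library of mouse 1856 had the low value, and the same limit holds. The difference was -22.3 points (exact permutation p = 0.00233, limma adjusted p = 0.0950). In 0P, the same site ran from 25.3 to 96.5%.

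**Figure D5:**
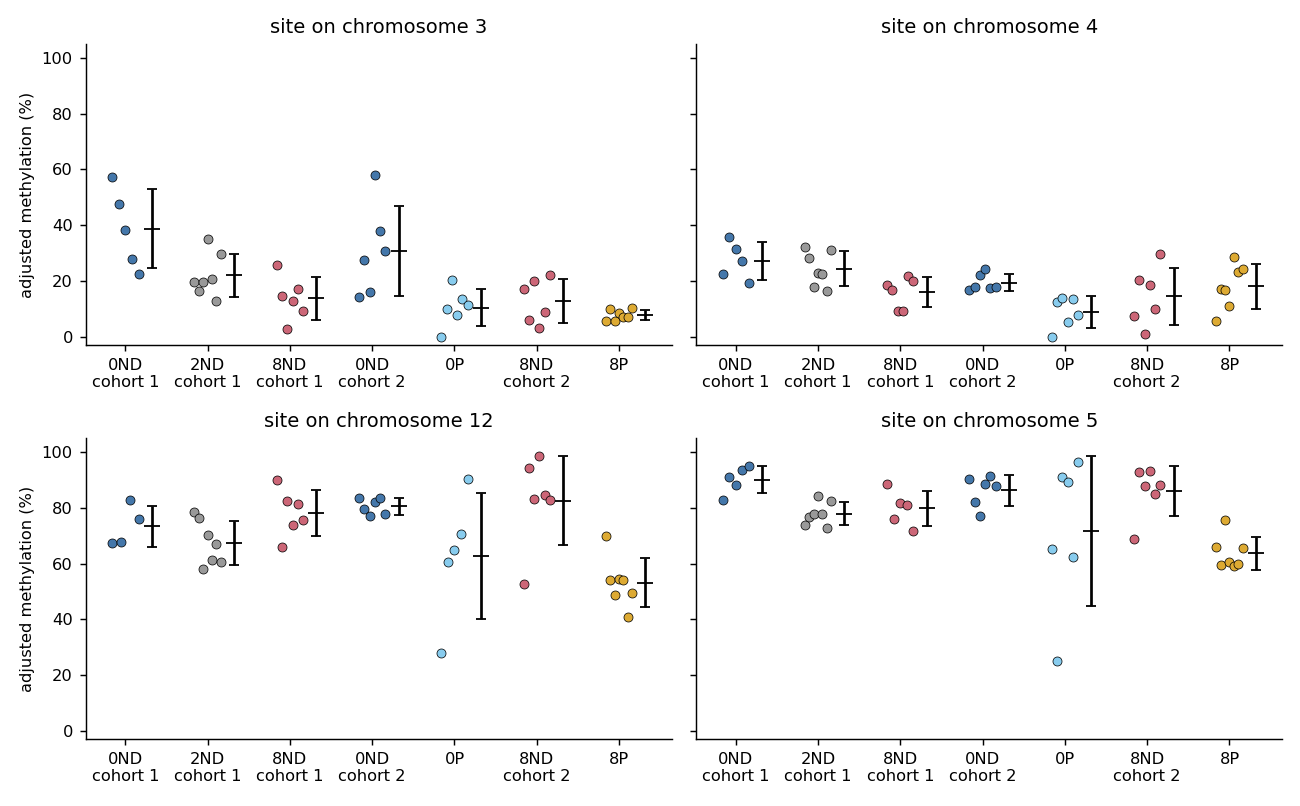
Adjusted methylation (vertical axis, %) by library at 4 isolated intermediate sites, on chromosomes 3, 4, 12 and 5, in the 7 groups (horizontal axis), for libraries with at least 20 reads at the site. Points are libraries and bars are means and SD. On chromosome 3 the 0ND groups reach 57.1 and 58.2% while 8P stays between 5.65 and 10.3%. On chromosomes 12 and 5 a single second-cohort 8ND library lies near the 8P values, at 52.6 and 68.8%.

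The polyp change was compared between diets over the 15 members with 20 reads in all 25 libraries of the second cohort. It was -6.73 ± 5.69 points on 0 mg (n = 6 mice, lower in 5) and -4.83 ± 6.68 on 8 mg (n = 6 mice, lower in 5). These changes differed by 1.90 points, with an exact permutation p of 0.597. At the 15 members tested in both comparisons, 8 were lower in polyps on both diets, 1 was higher on both and 6 differed in direction. No member was called on both diets.

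Polyps on the 2 diets were compared over 43 members, the most of any comparison. They averaged 44.99% ± 5.07 in 8P (n = 7) and 46.4% ± 5.87 in 0P (n = 6), a difference of -1.42 points (exact permutation p = 0.645). In 8P, 23 members were lower and 20 higher. Called members numbered 3 of 43, 2 of them lower, against 2.56% of the 13772 sites tested (0.879% as lower) and 7.68% of clustered intermediate sites, and 5 of 68 without the 0P library of mouse 1805. Limma with adjustment called 0 members and 0 of all sites, with 3 members at an unadjusted p under 0.05. No member had groups that did not overlap, compared with 0.232% of all sites. With 20 reads in at least 3 libraries of each group, 15 of 181 were called, 10 lower and 5 higher, against 3.56% of all sites. The 3 members were chosen for their calls and lie outside the rule for named sites but for chr4:149071875, which was higher in 8P (18.1% ± 8.07 compared with 8.88% ± 5.60, exact permutation p = 0.0385). At chr3:84278070, 8P had 56.7% ± 20.7 and 0P 89.2% ± 12.5 (exact permutation p = 0.00350), and at chr6:137014628 they had 35.8% ± 4.62 and 59.5% ± 19.8 (exact permutation p = 0.00583).

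Polyps on 8 mg FA and epithelium without FA differ in both diet and tissue. Over 28 members, 8P averaged 46.2% ± 2.93 (n = 7, lowest 41.2%, highest 49.5%) and the 0ND of the second cohort 56.2% ± 4.33 (n = 6, lowest 50.5%, highest 61.2%), and the libraries did not overlap. The difference of -9.93 points had an exact permutation p of 0.00117, the smallest this design allows (adjusted p = 0.00816). Clustered intermediate sites differed by -7.89 points. The 0ND libraries also serve in the comparison with 0P, and the 8P libraries in that with 8ND, so these differences are not independent.

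Called members numbered 11 of 28, all lower in 8P, against 9.62% of the 13195 sites tested (7.74% lower) and 37.9% of clustered intermediate sites. Groups did not overlap at 6 members, compared with 2.15% of all sites tested. With 20 reads in at least 3 libraries of each group, 20 of 66 were called, 17 of them lower, against 9.18% of all sites. Limma with Benjamini-Hochberg adjustment over all sites called 5 members: chr12:103432426 (-27.4 points, adjusted p = 0.0032), chr5:117102587 (-22.6 points, adjusted p = 0.00380), chr1:118744384 (-27.9 points, adjusted p = 0.0187), chr4:119545270 (-25.1 points, adjusted p = 0.0230) and chr6:137014628 (-21.8 points, adjusted p = 0.0238). The same limma adjustment called 386 of all 13195 sites tested. In limma too, the lesions of mouse 1856 counted as 2 libraries. The last 3 members are named here because of these values. At chr1:118744384 the 8P lesions lay at 26.4 to 51.9% and the 0ND libraries at 56.3 to 74.3%. At chr4:119545270 they lay at 34.8 to 53.6% and 54.4 to 88.5%.

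In the opposite pairing, 0P and the 8ND of the second cohort, 15 members averaged 42.3% ± 6.31 and 46.1% ± 6.40 (n = 6 and 6), a difference of -3.80 points (exact permutation p = 0.348). Without the 0P library of mouse 1805 it was -0.21 points over 22 members. One of 15 members was called, against 2.48% of the 8456 sites tested (2.09% as lower): chr4:150094135, lower in 0P (38.1% ± 17.8 compared with 65.3% ± 20.6, exact permutation p = 0.0303). Of clustered intermediate sites, 13.8% were called. None had groups that did not overlap, compared with 0.201% of all sites. With 20 reads in at least 3 libraries of each group, 6 of 64 were called, 2 lower and 4 higher, against 2.87% of all sites. Limma with adjustment called 0 members and 0 of all sites, with 1 member at an unadjusted p under 0.05.

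Whether isolation went with a different response was tested on the gap between members and clustered intermediate sites within each library. In the first cohort, members lay 1.55 ± 1.63 points above clustered sites in 8ND and 2.26 ± 1.49 above in 0ND, and these gaps differed by -0.71 points (exact permutation p = 0.476). The corresponding differences were 1.26 points for 8ND and 0ND of the second cohort (p = 0.576, exact permutation), -0.12 for 0P and 0ND (p = 0.965, exact permutation) and 0.03 for 8P and 8ND (p = 0.984, exact permutation), and the adjusted p over the 4 contrasts was 0.984 for each. In the first cohort the difference passed the test without the 8ND library of mouse LC1844 (-1.84 points, 31 members, exact permutation p = 0.0238) and with a minimum of 50 reads (-3.58 points, 7 members, exact permutation p = 0.0346).

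The spread between libraries at single members was set beside that of counting reads. Over the 24 members and the 0ND and 8ND libraries of the first cohort, the SD between libraries within a diet, each of another mouse, was 5.58 to 14.9 points (median 8.66), and the SD that counting alone gives had a median of 4.01 points. The ratio of these SDs reached 3.13, with 17 of 24 members above 2, and had a median of 2.17, compared with 2.08 at 1572 clustered intermediate sites. PCR copies and differences between library preparations enter this SD together with those between mice, and these cannot be told apart here. The 5 members with the largest SD were chr4:150094135 (14.9 points), chr2:158629726 (14.0), chr7:56526450 (11.8), chr4:149429791 (11.6) and chr3:122043172 (11.0). At the first of these, the 0ND mice had 66.6, 61.8, 47.2, 70.8 and 60.3%, and among the 8ND mice 1858 stood at 20.4% while the highest had 70.1%. The 5 with the smallest were chr8:70713245 (5.58), chr4:149071875 (6.01), chr1:136602024 (6.08), chr11:89170382 (6.21) and chr12:12729870 (6.29). At chr8:70713245 the 0ND mice had 79.7, 83.0, 82.6, 85.7 and 83.2%.

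In the second cohort the median SD over 15 members was 12.9 points in 0ND, 15.5 in 8ND, 15.4 in 0P (12.5 without mouse 1805) and 8.07 in 8P. Each of these 15 members had at least 20 reads in every library, with a median of 42 to 375 per library in 0P and 8ND. Over all members, covered or not, median reads were 4 to 12 per library in 0ND, 0 to 66 in 8ND, 23 to 57 in 0P and 35 to 84 in 8P. The part of read depth in these SDs was not tested. The lesions of mouse 1856 differed by a median of 10.9 points at 111 members with 50 reads in both, and 8P lesions of different mice by a median of 11.3 points over 20 pairs (range 8.70 to 14.1).

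The deviations of a mouse were compared between its epithelium libraries of both cohorts, for the 8 mice that had them, over 19 members. The correlation of the deviations across these members averaged 0.176 within a mouse, positive in 5 of 8, and -0.028 between different mice of a diet. The one-sided exact permutation p over all 720 matchings of mice within diets was 0.0528. Of 12 alternatives to this test, 9 did not pass 0.05 and 3 did, without adjustment for the number tried. Among those that passed, the mean correlation was 0.240 without the libraries of mouse 1856 (exact permutation p = 0.00694). Without those of mouse 1841 it was 0.210 (exact permutation p = 0.0208). At 1070 clustered intermediate sites it was 0.062 (exact permutation p = 0.115). The median absolute difference at members with 50 reads in both libraries was 13.3 points within a mouse (8 pairs) and 11.4 points between mice (52 pairs). Members are not independent of each other, and the correlations describe these libraries.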

How the data were processed

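The authors mapped DREAM reads (Bowtie2, SAMtools and mm9 are named in the submitters' processing notes, although the published methods speak of a human genome) and deposited, for 173449 CCCGGG sites and 18 standards in each of 43 libraries, counts of methylated and unmethylated reads, a raw methylation percent and a percent adjusted with the standards. The adjusted percent was checked to follow from the raw one by 1 odds factor per library (1.24 to 4.04 in the first cohort, 0.99 to 1.97 in the second). All of this was given per library, and groups, cohorts and mice come from the labels. The titles name no cohort, but the codes of first-cohort libraries alone begin with LC.

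Members, site lists and tests were chosen with earlier results of these data known. A member was compared with 20 reads in every library of both groups. Group means over members were tested by exact permutation of libraries (two-sided), and by sign flips within mice. Single sites were called over the whole table by the study's criteria (two-group test with unadjusted p under 0.05, difference above 5 points), with equal variances and the coverage minimum set here. Polyps and epithelium are paired because they come from the same mice. The deviations of epithelium and polyp of a mouse correlated by -0.29 to 0.41 on 0 mg and -0.39 to 0.45 on 8 mg. Each library is 1 sample of 1 mouse except for the lesions of mouse 1856, which count as 2 in 8P unless averaged.

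Named sites are, in each of 8ND and 0ND of the first cohort, 0P and 0ND, and 8P and 8ND, up to 4 called members per direction with the largest difference and no overlap of groups (or, with fewer than 2, the largest called), the 5 members with the largest and the 5 with the smallest SD between libraries of different mice, members called in both polyp comparisons (0), and the sites beside each threshold. Python 3.11.15, numpy 2.4.6, scipy 1.17.1, pandas 2.3.3, matplotlib 3.10.9, R 4.3.3 and limma 3.58.1 were used. The equal-variance test, the quasi-binomial fit and the permutation test were tested on simulated data. Alternatives were coverage minimums of 10 and 50, 20 reads in at least 3 libraries of each group, raw percentages, a distance of 2000 bp, a window of 30 to 70%, centring, medians, limma, a quasi-binomial logistic fit to read counts, restriction by library type, mouse blocks, averaged lesions, clustered sites with 3 or more neighbors, raw percentages together with at least 3 libraries (chosen after seeing the data) and leaving out each replicate. Standards were left out of all tests.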

Additional observations from a re-analysis of the deposited data

Results flagged for a closer look

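In groups of 4 to 10 libraries, 53 sets of values were examined for a library that stood apart (Dixon's 95% limit), and 9 had one. Chance gives about 1 in 20 for independent sets. These sets share libraries and members, so the count is no test against chance. The second-cohort 8ND library of mouse 1858 had the highest member mean in each comparison it entered. It stood at 58.1% beside 0P (next 47.0%), 60.9% beside 0ND (next 48.7%) and 62.0% beside 8P (next 51.1%). The share of member values under 10% or above 90% was 12.7% in the first-cohort 0ND library of mouse LC1810 (next 5%), 22.2% in the first-cohort 8ND library of mouse LC1844 (next 3.70%, from 9 members) and 27.3% in the second-cohort 8ND library of mouse 1830 (next 15%). The second-cohort 8ND library of mouse 1856 was low at chr12:103432426 (52.6%, next 82.8%) and chr5:117102587 (68.8%, next 84.9%), and the 8P lesion of mouse 1841 was high at the latter (75.5%, next 66.0%). On chromosome X, which the choice of members leaves out, 5 of 14 covered isolated sites were intermediate in 2ND.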

How the results depend on the processing

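Of the alternatives to the 7 member means, 147 kept direction and side of the threshold, 8 lost the threshold, 1 passed it and 5 reversed. Raw percentages gave -6.74 points for the first cohort and -8.37 for 0P minus 0ND, and together with at least 3 libraries -7.51 and -3.62. For 0P minus 0ND, at least 3 libraries gave -5.09, a window of 30 to 70% -10.6, libraries under 8% on the 100 most-read sites -8.39, and the replicate block by mouse -9.66 (exact sign-flip p = 0.0625); blocking changed no other call of a mean. Medians over sites gave 0.37 for 8P minus 8ND. For 0P minus 8ND, at least 3 libraries gave 2.62, with raw percentages 6.09. The cause was not tested.

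Called members changed with coverage and tool. Settings of coverage and of libraries also changed which members could be tested, so these counts are not shares. They do not show by themselves that calls were lost or gained. Values over all sites are given above for the main setting, for at least 3 libraries and for limma with adjustment, and not for the other settings. With 50 reads they numbered 4 in the first cohort, 1 in second-cohort epithelium, 0 for 8P minus 8ND, 6 for 8P minus 0ND and 0 for 0P minus 8ND, and with 10 reads 4 for 8P minus 8ND and 7 for 8P minus 0P. With at least 3 libraries they numbered 20 of 66 tested in the first cohort, 9 of 58 (0P minus 0ND) and 11 of 74 (8P minus 8ND). They numbered 15 of 181 (8P minus 0P), 20 of 66 (8P minus 0ND) and 6 of 64 (0P minus 8ND) in the others. Raw percentages gave 7 in the first cohort, 5 for 8P minus 0P and 0 for 0P minus 8ND. The quasi-binomial fit gave 8 for 0P minus 0ND, 4 for 8P minus 8ND and 2 for 0P minus 8ND. Libraries under 8% on the most-read sites gave 6 for 8P minus 8ND. Limma with adjusted p gave 5 for 8P minus 0ND and 0 in the other comparisons, and with a mouse block at an unadjusted p 5 for 0P minus 0ND and 2 for 8P minus 8ND.

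The difference between groups in the gap between members and clustered sites was -3.58 points with 50 reads in the first cohort. In second-cohort epithelium it was -0.73 with 10 reads, -0.99 with 50 and -2.27 against sites with 3 or more neighbors. For 0P minus 0ND it was 0.93 with 10 reads, 0.43 at 2000 bp and 0.14 at 30 to 70%, and for 8P minus 8ND -0.56 with 50 reads, -0.32 in raw percentages and -1.44 against sites with 3 or more neighbors. The same-mouse correlation was 0.185 in raw percentages (exact permutation p = 0.0375).

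Leaving out each library gave means of -7.16 to -4.90 (first cohort), -5.82 to -2.42 (second-cohort epithelium), -11.7 to -6.81 (0P minus 0ND), -4.29 to -2.01 (8P minus 8ND), -3.21 to 0.79 (8P minus 0P, positive without 8P of mouse 1800 or 0P of mouse 1839), -11.1 to -7.75 (8P minus 0ND) and -5.47 to -0.21 (0P minus 8ND). Which members were tested could change with the library left out. Called members numbered 9 to 16, 1 to 3, 3 to 7, 2 to 4, 2 to 6, 10 to 13 and 0 to 2 in that order. The count was 7 for 0P minus 0ND without 0P of mouse 1809, 4 for 8P minus 8ND without 8P of mouse 1830 or 8ND of mouse 1800, 1830, 1841 or 1858, and 5 or 6 for 8P minus 0P without 0P of mouse 1805, 1807, 1808, 1809 or 1839. In second-cohort epithelium it was 1 without 8ND of mouse 1800 or 1848 or 0ND of mouse 1839. The difference between groups in the gap ran from -1.84 to 0.037, -0.035 to 2.33, -1.47 to 1.68 and -0.68 to 1.39 in the first 4 comparisons. The diets' polyp changes differed by 0.0055 to 3.86, and the same-mouse correlation was 0.111 to 0.240. Few members had reads in every library, so the remaining ones were not tested at this depth.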
